A study of Mus musculus with 43 samples.

Results

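The genes described here are the histone genes of the Hist clusters, chosen by name as every row of the count table whose symbol begins with Hist1h, Hist2h, Hist3h or Hist4h. The rule gave 70 of 35825 genes, of which 56 lie in the Hist1 cluster, 10 in Hist2, 3 in Hist3 and 1, *Hist4h4*, in Hist4. They were measured in 43 NAcLat→VTA cells, which are neurons of the lateral nucleus accumbens that project to the ventral tegmental area, each taken up through a patch pipette and sequenced as 1 library. REG cells (23) came from mice kept on standard chow and HFD cells (20) from mice that could also eat chow with 60% fat for at least 4 weeks, and both diets used male and female C57BL/6J mice of 6 to 8 weeks at the start of experiments. The study counts 10 REG mice and 11 HFD mice, but the labels do not tie cells to mice. Each diet therefore counted as a single sample, and values are compared below without a test. The labels place 13 REG cells and 5 HFD cells in batch 1, and 10 REG cells and 15 HFD cells in batch 2. The diet ratio of 1 member, *Hist1h3a*, was known when the genes were chosen, so its values are a description.

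Histones are the proteins around which DNA is wound: 2 copies each of H2A, H2B, H3 and H4 form the core of a nucleosome, and H1 binds the linker between nucleosomes. Most copies of these genes sit in clusters and are transcribed during DNA replication, and their mRNAs end in a conserved stem-loop, bound by the protein SLBP, where other mRNAs have a poly(A) tail. Polyadenylated transcripts of some of these genes are known from differentiated cells, which do not replicate their DNA. The labels give the molecule of these libraries as poly(A) RNA.

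Total estimated counts per cell were between 176961 and 16919555, with a median of 1426795. A level is given below as counts per 1000000 counts of the cell (CPM), or as TPM, which the authors also scaled by transcript length, where genes are compared with each other. The identity of the cells was checked on marker genes. *Gad1* and *Gad2*, the enzymes of GABA synthesis, and *Drd1*, *Tac1* and *Pdyn*, which mark medium spiny neurons of the direct pathway, had counts in all 43 cells. *Isl1*, also read as a direct-pathway marker, had a lowest level of 0 CPM and a median of 22.1 CPM. *Bcl11b*, read as a marker of all medium spiny neurons, was in 42 cells. *Lars2*, a mitochondrial tRNA synthetase, accounted for 2.33% to 79.8% of a library (median 26.1%), and so weighs on every CPM.

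The stem-loop that defines these transcripts was looked for in the annotated models (GENCODE, GRCm38) and found in 46 of the 70 genes. In 18 of the 24 genes without a match the longest annotated transcript is shorter than 500 bases. The matches had 8 different sequences, and the first listed is shared by 26 genes of the H1, H2A, H2B and H3 classes. One member is shown for each, 5′ to 3′ on the coding strand, with the 16 bases of the stem-loop in capitals and 5 bases before and 3 bases after it in lower case.

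Hist1h3a: ccaaaGGCTCTTTTCAGAGCCaca
Hist1h3e: aaaacGGCTCTTTTAAGAGCCacc
Hist1h3g: ttaaaGGCTCTTCTTAGAGCCacc
Hist2h2ac: aaaaaGGCTCTTTTTAGAGCCacc
Hist1h4d: ccaaaGGCCCTTTTCAGGGCCact
Hist1h4i: ttaaaGGCCCTTTTTAGGGCCacc
Hist1h4b: caaaaGGTCCTTTTCAGGACCact
Hist1h4a: ccaaaGGCCCTTCTCAGGGCCgcc

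The arms of the stem separate H4 from the other classes. The sequence GGCTC opened the stem-loop in all 4 H1, 11 H2A, 10 H2B and 9 H3 genes with a match, and in 0 of the 12 H4 genes with a match. What follows the stem-loop differed more. The annotated transcript of *Hist1h2ap*, an H2A gene, ended 3 bases after it, that of *Hist1h3a* 37 bases after it, and that of *Hist1h1d*, the H1.3 linker histone gene, 4884 bases after it. In 23 genes the model ran over 100 bases past the stem-loop, and these were detected, with a count above 0, in a median of 14 cells. The 23 genes that end within 100 bases were detected in a median of 4 cells, and the 24 genes without a match also in a median of 4 cells. These groups overlap: *Hist1h2ap* had counts in 35 cells, and *Hist1h2bc*, an H2B gene whose model continues into a second exon and holds no stem-loop, in 39. The level scaled to length did not follow detection. The median of the genes' mean TPM was 6.89 for the long models, 8.64 for the short ones and 3.59 without a match. Longer models also have more sequence of their own, with a median of 70.6% of 31-base words found in no other gene against 32.8% in the short ones, so length and uniqueness cannot be told apart here.

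**Figure D1:**
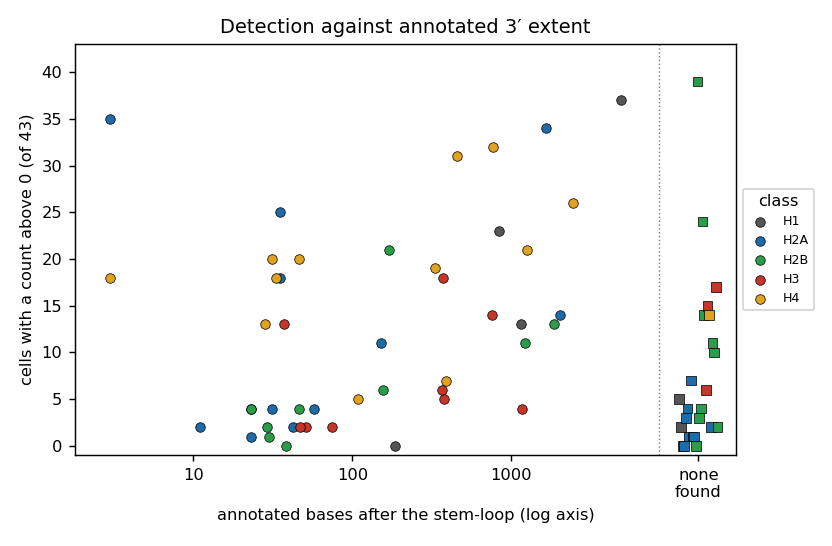
Each point is 1 of the 70 Hist genes, coloured by class; the x axis gives the annotated bases after the stem-loop on a log scale, with squares at the right for the 24 genes in which no stem-loop was found, and the y axis the number of cells with a count above 0. Genes with long annotated ends are found in more cells on the median (14 against 4), but *Hist1h2ap*, 3 bases long after the stem-loop, lies at 35 cells.

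Promoter windows of 300 bases, from 250 before to 50 after the start, were held for 62 of the 70 genes (RefSeq, GRCm38.p6), and *Hist1h3a* and *Hist1h2bc* were not among them. Motifs were searched as letters on both strands. TATAAA stood in 56.5% of the 62 windows and in 13.6% of 32851 windows of all genes, and CCAAT in 85.5% against 37.4%. CCAAT was in every H1, H2A, H2B and H3 window and in 3 of 12 H4 windows. The octamer ATTTGCAT, known from H2B promoters, stood in 21% of the windows against 1.74% of all, in 7 of 18 H2A and 6 of 16 H2B windows and in no window of the other classes. H2A and H2B genes often lie head to head, so that their windows overlap and these counts are not independent. Windows of a widely detected H4 gene and a widely detected H2A gene are shown with each match in capitals: *Hist1h4d*, at chr13:23581318-23581617 on the plus strand, and *Hist3h2a*, at chr11:58954435-58954734 on the plus strand.

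Hist1h4d: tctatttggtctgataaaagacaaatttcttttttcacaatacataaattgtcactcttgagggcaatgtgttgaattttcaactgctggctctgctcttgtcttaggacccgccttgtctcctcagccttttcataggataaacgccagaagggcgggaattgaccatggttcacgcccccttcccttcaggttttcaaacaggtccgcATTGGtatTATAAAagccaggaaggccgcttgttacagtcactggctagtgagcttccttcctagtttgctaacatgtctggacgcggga
Hist3h2a: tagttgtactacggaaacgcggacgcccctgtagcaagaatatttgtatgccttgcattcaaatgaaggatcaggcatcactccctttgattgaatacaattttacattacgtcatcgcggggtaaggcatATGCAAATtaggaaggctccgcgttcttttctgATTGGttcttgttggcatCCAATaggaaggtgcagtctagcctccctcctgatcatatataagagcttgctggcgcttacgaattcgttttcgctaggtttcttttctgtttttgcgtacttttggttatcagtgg

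The *Hist1h4d* window holds CCAAT, on the minus strand, directly before TATAAA. The *Hist3h2a* window holds the octamer on the minus strand and CCAAT on both strands, but not TATAAA.

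Counts above 0 were found for 65 of the 70 genes in at least 1 cell (92.9%, against 65.7% of all rows of the table). Together the 70 genes took 0.0384% of all counts. Detection was thin: of 3010 combinations of gene and cell, 770 (25.6%) held a count. In all 43 cells there were 0 genes (against 3.04% of all rows). In at least 10 cells there were 33 genes (47.1%, against 39.9% of all rows), in at least 30 cells 6 genes (8.57%, against 20.8%), and 24 genes were seen in 1 to 4 cells (34.3%, against 19.6%). The 5 genes without a count were *Hist1h1t*, *Hist1h2aa*, *Hist1h2ba*, *Hist1h2af* and *Hist1h2bp*, and the first 3 of these encode variants known from the testis. For each, 0 of 43 cells allows a share of up to 6.98%, by the rule that a count of 0 allows 3. *Hist1h2ag* was listed in HFD cell 12 alone, with an estimated count of 1.4e-08, far below 1 read.

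The H4 class was found most evenly. All 13 H4 genes had counts in at least 5 cells, and their median was 19 cells. *Hist1h4d* was in 32 cells, *Hist1h4c* in 31, *Hist4h4* in 26 and *Hist2h4* in 21, while *Hist1h4a* was in 5. In the other classes a few genes carried most of the signal. Of 20 H2A genes, 13 were in 4 cells or fewer, against *Hist1h2ap* in 35, *Hist3h2a* in 34 and *Hist2h2aa1* in 25. Of 19 H2B genes, 10 were in 4 cells or fewer, against *Hist1h2bc* in 39, *Hist1h2bq* in 24 and *Hist3h2ba* in 21. Among the 6 H1 genes, *Hist1h1d* was in 37 cells, *Hist1h1c* (H1.2) in 23 and *Hist1h1e* (H1.4) in 13. H3 had no gene found as widely: its 12 genes reached at most 18 cells (*Hist1h3e*), with *Hist2h3b* in 17, *Hist1h3i* in 15, *Hist1h3d* in 14 and *Hist1h3a* in 13.

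Levels were as uneven. Per transcript length, *Hist1h2ap* was the highest member, with a mean of 366.8 TPM over 43 cells, and *Hist1h2bc* followed with 136.9 and *Hist2h2aa1* with 103.7. *Hist1h1d*, found in 37 cells, had a mean of 1.66 TPM on a model of 7425 bases. On the CPM scale, the 3 leading genes (*Hist1h2bc*, *Hist1h2ap* and *Hist3h2a*) made up 37.5% of the summed Hist level, and the 10 leading genes 66.7%. Summed by class, H2A gave 37.5% of the Hist level in TPM, H4 29.7%, H2B 15.7%, H3 15.1% and H1 1.99%. In CPM, which grows with transcript length, these shares were 28.8%, 26.6%, 24.1%, 12.9% and 7.53%.

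These genes are close copies. The median member has 39% of its 31-base words to itself, and 43 members have less than 50%. In *Hist2h2aa1*, *Hist2h2aa2*, *Hist2h2bb*, *Hist2h3b* and *Hist2h3c1* no word is unique. *Hist2h2aa1* and *Hist2h2aa2* share 498 words with each other, while *Hist2h2bb* shares at most 16 with any other member, overlaps other annotated genes, and had whole counts throughout. Only 36.4% of the members' counts above 0 lay within 0.01 of a whole number, against 65.3% over all rows. Most H2A genes also overlap an annotated gene on the opposite strand, *Hist1h1e* shares exon sequence with *Hist1h2be*, and *Hist3h2a* with *Trim17*; library strands are not told apart. Which copy a count belongs to is therefore less certain than the class it belongs to. Some members also share words with many genes outside the set. *Hist1h2bc* shares words with 1058 such genes and *Hist1h2ac* with 452, against 3 for *Hist1h3a*. How far this bears on their counts was not tested.

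**Figure D2:**
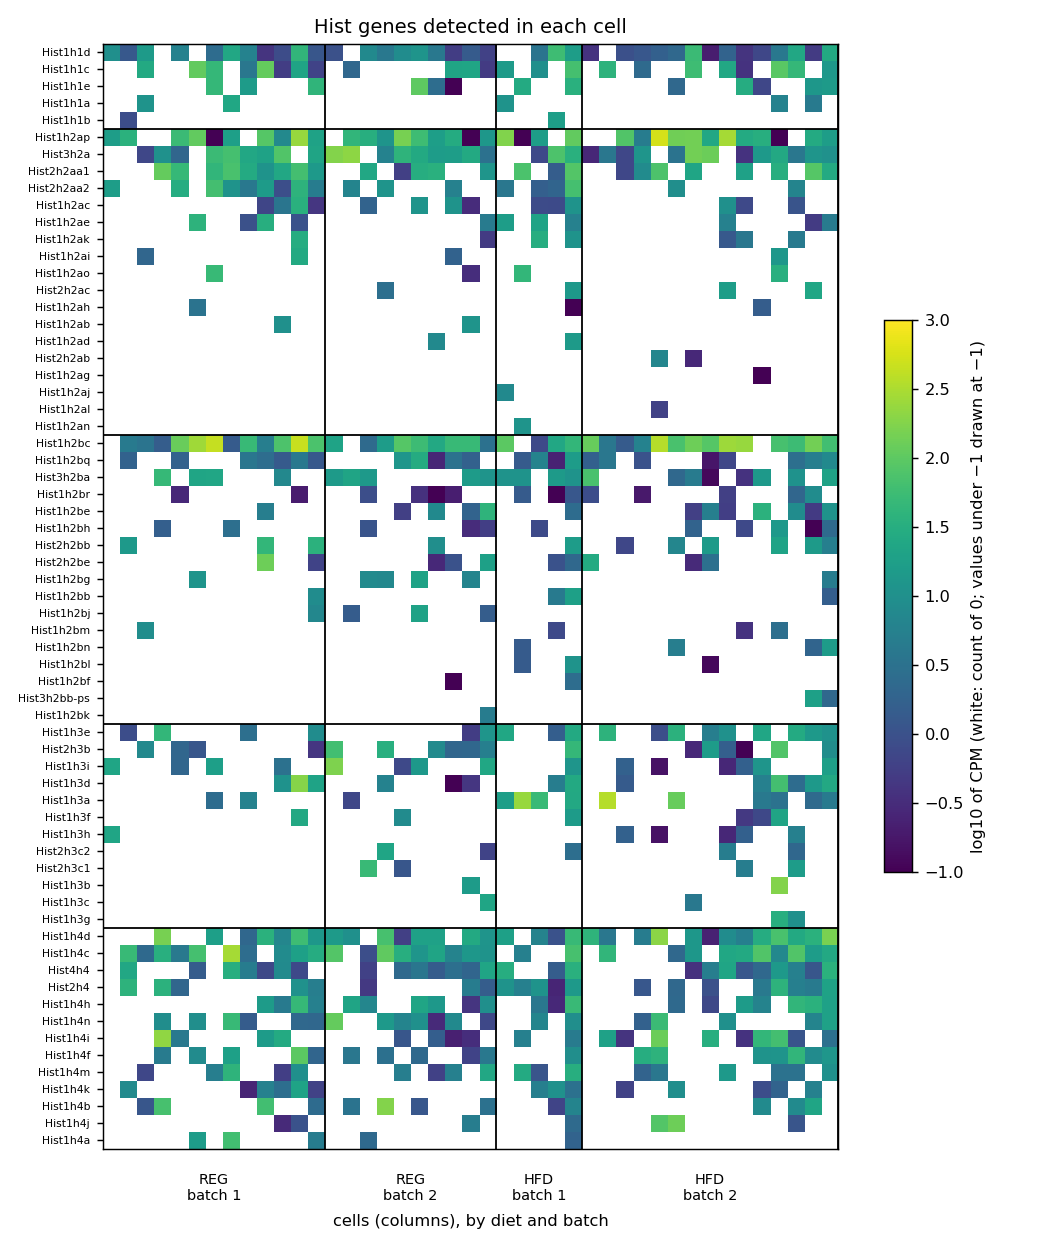
Rows are the 65 Hist genes with a count in any cell, ordered by class (H1, H2A, H2B, H3, H4 from the top) and by number of cells; columns are the 43 cells, by diet and batch and, within each, by number of genes detected. Colour gives log10 of CPM and white a count of 0: a few rows, such as *Hist1h2bc* (39 cells) and *Hist1h1d* (37 cells), run across most columns, and most rows hold scattered entries.

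Cells held different sets of Hist genes. A cell had counts on a median of 16 of the 70 genes, between 5 and 43. REG cells had a median of 15, between 5 and 28, and HFD cells a median of 17.5, between 8 and 43, so the diets overlapped almost completely. In batch 1 the REG median was 14 and the HFD median 18, and in batch 2 these were 17.5 and 17. With each cell thinned to 150000 counts, the medians were 10 and 9.5. Across the 43 cells, the number of Hist genes went with the number of all genes detected (Spearman's rho = 0.615, Pearson's r = 0.598), with which it shares library and depth. HFD cell 4, with 43 genes, stood apart from the other HFD cells, whose next highest was 31.

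No set of Hist genes occurred in 2 cells. A pair of cells shared a median of 8 genes, between 0 and 27, and of all genes found in either cell a median share of 0.296 was found in both. This share was 0.304 for 2 REG cells, 0.286 for 2 HFD cells and 0.296 for 1 cell of each diet, and it was 0.297 within a batch and 0.295 between batches. By class the cells agreed more: 38 of 43 cells had a count on at least 1 gene of each core class (H2A, H2B, H3 and H4), and 37 also on an H1 gene. The member with the highest CPM in a cell was *Hist1h2bc* in 11 cells, *Hist1h2ap* in 7, *Hist3h2a* in 6, *Hist1h4c* in 4 and *Hist1h3a* in 3, and 17 different members led in at least 1 cell.

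Pairs of genes were compared for the 33 genes found in at least 10 cells. Over 528 pairs, the share of cells with both genes, among cells with either, had a median of 0.314. The 103 pairs that share a 31-base word had a median of 0.303 and the 425 pairs without a shared word 0.318. The highest was 0.854, for *Hist1h1d* and *Hist1h2bc*, which occurred together in 35 cells. The 10 pairs with the highest shares each joined 2 of the 6 genes found in at least 30 cells. Head-to-head neighbours did not stand out. *Hist1h2ac* and *Hist1h2bc* start 251 bases apart, and all 14 cells with *Hist1h2ac* also had *Hist1h2bc*, itself in 39 cells. *Hist1h2ap* and *Hist1h2br*, 236 bases apart, occurred together in 11 of the 14 cells with *Hist1h2br*. *Hist1h2ae* (11 cells) and *Hist1h2bg* (6 cells), 176 bases apart, shared 2 cells, and *Hist1h2ak* (7 cells) and *Hist1h2bn* (4 cells) shared 0.

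The summed level of all 70 genes overlapped between the diets. REG cells spanned 80.4 to 1447 CPM, with a median of 326.8, and HFD cells 76.6 to 1508 CPM, with a median of 454.9. The means were 421.2 and 509.5 CPM, a log2 ratio of HFD to REG of 0.27. The SD over cells was 317.5 CPM in REG and 341.1 CPM in HFD. Within batch 1 the ratio was −0.064 and within batch 2 it was 0.67. The 69 genes without *Hist1h3a* gave 0.15, with −0.29 in batch 1 and 0.57 in batch 2, and −0.025 when HFD cell 11 was left out. Single cells weighed on it: without HFD cell 11, at 1508 CPM, the ratio for all 70 genes was 0.12, and without REG cell 5, at 1447 CPM, it was 0.44. Without HFD cells 4 and 11 together it was 0.010.

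**Figure D3:**
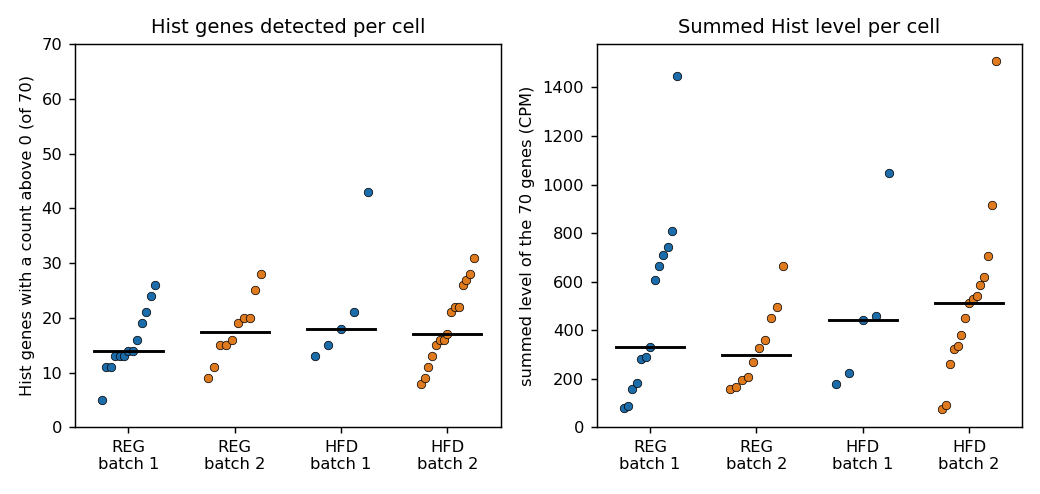
Points are cells, in 4 columns by diet and batch, and lines mark medians; the left panel gives the number of Hist genes with a count above 0 and the right panel the summed CPM of all 70 genes. The columns overlap in both panels, HFD cell 4 lies highest on the left with 43 genes, and REG cell 5 (1447 CPM) and HFD cell 11 (1508 CPM) lie highest on the right.

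By class, the ratio of mean summed CPM, HFD to REG, was 0.13 for H1, 0.29 for H2A, 0.090 for H2B, 0.041 for H4 and 1.20 for H3. The H3 value rested on *Hist1h3a*. That gene gave 48.4% of the mean H3 level in HFD cells and 1.07% in REG cells, and without it the H3 ratio was 0.26, with 0.14 in batch 1 and 0.049 in batch 2. It was −0.50 without HFD cell 18. The small ratios of H1, H2B and H4 turned with 1 cell as well: leaving out HFD cell 11 gave −0.083 for H2B and −0.21 for H4, and leaving out HFD cell 4 gave −0.053 for H1. The H2A ratio stayed positive but fell to 0.012 without HFD cell 11. H2B and H4 went opposite ways in the batches, with ratios of −1.25 and −0.65 in batch 1 and 1.18 and 0.48 in batch 2.

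*Hist1h3a* encodes a core H3 histone and lies at chr13:23761853-23762386 on the minus strand (GRCm38), in a gene of 1 exon. It had counts in 3 of 23 REG cells (13%, exact 95% binomial interval 2.78% to 33.6%) and in 10 of 20 HFD cells (50%, 27.2% to 72.8%). These intervals take the cells as independent, which cells of 1 mouse may not be, and compare no diets. In REG cells the counts were 8 in cell 2, 1 in cell 10 and 1 in cell 16, with levels of 5.86, 2.56 and 0.721 CPM, and the other 20 cells were at 0. In HFD cells of batch 1, 4 of 5 cells held the gene, with 43, 4.59, 68 and 69.0 counts in cells 1, 2, 3 and 4, or 241.1, 17.5, 52.0 and 25.6 CPM. In HFD cells of batch 2, 6 of 15 cells held it. Cell 7 had 91.9 counts and cell 15 had 51.7, at 356.3 and 116.4 CPM, and cells 9, 12, 14 and 18 had 6, 5.86, 4.93 and 1.09 counts, at 2.37 to 4.49 CPM. Thus 6 HFD cells lay above every REG cell, while 10 HFD cells were at 0 and the remaining 4 lay within the REG range.

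All REG cells together held 10 counts of the gene (95% Poisson interval, exact, 4.80 to 18.4) and all HFD cells 346.1 (310.6 to 384.6). PCR copies of a molecule are not independent, and these intervals hold no error but that of counting. Mean levels were 0.398 and 41.2 CPM, a log2 ratio of 6.69, with 6.70 within batch 1 and 8.81 within batch 2. HFD cell 7 gave 43.3% of the HFD mean, and without it the ratio was 5.95. Without REG cell 2, which gave 64.1% of the REG mean, it was 8.11. The totals of the 13 cells with the gene were between 178341 and 2693211 counts, and the part of depth in its detection was not tested. In HFD cell 7 it was 69.7% of the Hist level of a cell with counts on only 9 members, and in HFD cell 1 it was 52.4%.

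**Figure D4:**
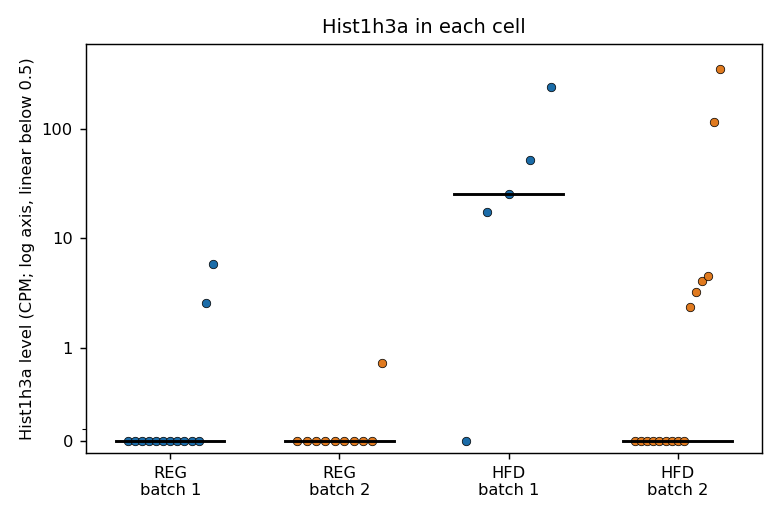
Points are cells, in 4 columns by diet and batch, with lines at the medians; the y axis is the *Hist1h3a* level in CPM on a log scale that is linear below 0.5. Of the REG cells 20 lie at 0 and the highest at 5.86 CPM, while 6 HFD cells lie between 17.5 and 356.3 CPM and 10 HFD cells lie at 0.

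The identity of these counts has a limit. Of the 31-base words of *Hist1h3a*, 41.1% occur in no other annotated gene, and it shares 276 words with *Hist1h3h*, 273 with *Hist1h3b*, 231 with *Hist1h3d* and 215 with *Hist1h3e*. Of its 13 counts above 0, 46.2% lay within 0.01 of a whole number. Of the 13 cells with *Hist1h3a*, 11 had *Hist1h4d* (32 of 43 cells in all), 11 *Hist1h2ap* (35 cells), 11 *Hist3h2a* (34 cells) and 10 *Hist1h2bc* (39 cells). *Hist1h1e* (13 cells) and *Hist1h3e* (18 cells) were each in 8 of the 13, *Hist2h4* (21 cells) in 9, and *Hist1h2ac* (14 cells) in 2.

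Most genes around *Hist1h3a* were found in few cells. More widely found members within 100000 bases were *Hist1h2bc* (39 cells), *Hist1h4c* (31 cells), *Hist1h1c* (23 cells) and *Hist1h2ac* (14 cells). *Hist1h4a*, an H4 gene that is its nearest annotated neighbour, had counts in 4 REG cells and 1 HFD cell. *Hist1h1a*, the H1.1 gene on its other side, was in 2 REG cells and 3 HFD cells, and *Hist1h4b* in 8 and 5. *Hist1h2bb* was in 1 REG and 3 HFD cells with a ratio of 1.67, or −0.35 without HFD cell 4. *Hist1h3b* and *Hist1h3c* were each in 1 REG and 1 HFD cell, with ratios of 3.78 and −2.25, and *Hist1h2ab* was in 2 REG cells. Of the 6 genes within 100000 bases that are no members and are in the table, *Hfe* was in 11 REG and 8 HFD cells with a ratio of 0.10, *Trim38* in 6 and 1 cells and *Slc17a2* in 4 and 2 cells. *Gm11336* was found in 2 REG cells, and *Gm11338* and *Slc17a3* each in 1.

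Differences between the diets in single members were counted at a log2 ratio of 1 or more, over members with counts in at least 5 cells. Of 41 such members, 5 (12.2%) were higher in HFD cells, and over all 16486 genes with counts in at least 5 cells and a ratio this share was 13.7%. Lower in HFD cells were 8 members (19.5%), against 21.5% of all genes. Over all cells both shares of the members were near those of all genes. In batch 1, 10 of 40 members were higher (25%, against 21.6% of all genes) and 10 lower (25%, against 28%). In batch 2, 18 of 41 were higher (43.9%, against 17.9%) and 10 lower (24.4%, against 27.8%), so that the share of higher members there was above that of all genes. Some batch ratios are bounds, since a group without counts in the batch was given 3 counts. *Hist1h4k*, without a REG count in batch 2, was at least 2.72 there. The median ratio of the 41 was 0.16, and that of all genes was −0.17. The members higher in HFD cells were *Hist1h3a*, *Hist1h4j*, *Hist1h2br*, *Hist1h3e* and *Hist1h2bh*. Those lower were *Hist1h4a*, *Hist1h2bg*, *Hist1h4b*, *Hist1h3i*, *Hist2h2be*, *Hist1h2ac*, *Hist1h3h* and *Hist2h2aa2*. Nearest to the limit were *Hist2h2aa2* at −1.01 inside it, and *Hist2h3c2* at −0.997 and *Hist1h2ap* at 0.995 outside it.

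Most of these ratios rested on a few cells. Leaving out 1 cell took *Hist1h2bh* from 1.83 to 0.12 (HFD cell 18), *Hist1h3i* from −2.25 to −0.72 (REG cell 19), *Hist1h2ac* from −1.17 to −0.13 (REG cell 5), *Hist2h2aa2* from −1.01 to −0.55 (REG cell 10) and *Hist2h2be* from −1.94 to 0.87 (REG cell 3). The ratio of *Hist1h3h*, −1.07, rested on REG cell 1 alone, with 4 counts at 22.6 CPM, against counts in 5 HFD cells. Without REG cell 1 no REG count was left, and no ratio was given. *Hist1h4j*, an H4 gene, had a ratio of 5.33, with mean levels of 0.272 CPM in REG and 11 CPM in HFD cells. Its levels were 1.03, 0.297 and 4.93 CPM in REG cells 5, 13 and 17, and 2.44, 1.15, 83.7 and 132.2 CPM in HFD cells 4, 6, 11 and 15. HFD cells 11 and 15 thus decided the value, and the others overlapped. *Hist1h4a* had a ratio of −5.30, with 61.6, 4.83, 16.2 and 2.33 CPM in REG cells 4, 8, 12 and 21, and 1.87 CPM in HFD cell 4. *Hist1h2bg*, an H2B gene with a ratio of −3.27, was found in 5 REG cells at 6.38 to 19.8 CPM and in HFD cell 9 at 4.85 CPM. *Hist1h2be*, in 5 REG and 8 HFD cells, shows the reach of 1 cell: its ratio of 0.46 was 2.24 without REG cell 20 and −0.64 without HFD cell 12.

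*Hist1h3e*, an H3 gene, was the member past the limit with counts in the most HFD cells, 12 of 20 against 6 of 23 REG cells. It was at 0 to 44.7 CPM in REG cells (median 0) and at 0 to 39 CPM in HFD cells (median 3.32), so the ranges overlapped. Its means were 3.05 and 11.1 CPM and its ratio 1.86, with 1.27 in batch 1 and 3.13 in batch 2. Leaving out any 1 cell gave 1.65 to 3.25. Only 15.6% of the 31-base words of *Hist1h3e* are its own, and it shares 606 words with *Hist1h3f*, which had a ratio of 0.38. *Hist1h2br*, an H2B gene, had a ratio of 3.10 and a low level, at most 0.930 CPM in a REG cell and 8.90 CPM in an HFD cell, and 7 of its 14 counts above 0 were under 1. Only 10.5% of the 31-base words of *Hist1h2br* are its own, and it shares 1973 words with *Hist1h2bq*. The latter had means of 2.76 CPM in REG and 2.38 CPM in HFD cells, a ratio of −0.21. How counts divide between these 2 copies was not tested. *Hist1h4b* was lower in HFD cells, with a ratio of −2.63, −2.90 in batch 1 and −2.89 in batch 2. It was in 8 REG and 5 HFD cells, at up to 184.3 CPM in REG cell 15 and up to 22.4 CPM in HFD cell 14.

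The widely detected members had ratios nearer 0, and several turned between batches. *Hist1h2bc* was at 0 to 466.6 CPM in REG cells (median 26.2) and at 0 to 363.6 CPM in HFD cells (median 65.1). Its ratio was 0.16, made of −1.78 in batch 1 and 1.79 in batch 2. *Hist1h2ap* was at 0 to 237.6 CPM in REG cells (median 18.4) and at 0 to 551.4 CPM in HFD cells (median 26.1), with ratios of 0.40 in batch 1 and 1.33 in batch 2. *Hist3h2a* had a REG median of 17.1 CPM, an HFD median of 3.88 CPM and a ratio of −0.59, with 0.068 in batch 1 and −1.17 in batch 2. *Hist1h4c* had a ratio of −0.79, and *Hist1h4d* of 0.76, with −0.54 in batch 1 and 1.21 in batch 2. *Hist1h4i* had the widest turn, from −3.33 in batch 1 to 5.91 in batch 2, with REG cell 9 giving 81.0% of its REG mean.

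Of the 40 members with a ratio in both batches, 21 (52.5%) had the same sign in each, against 49.3% of 15438 genes. Bounds were counted among these ratios, such as that of *Hist1h4a* in batch 2 (−0.67 or lower), where no HFD cell held a count. Past a ratio of 1 in the same direction in both batches were 6 of the 40 members, 15% against 13.5% of all genes: *Hist1h3a*, *Hist1h4j*, *Hist1h2br*, *Hist1h3e* and *Hist1h2ak* were higher and *Hist1h4b* was lower in HFD cells. Of these, *Hist1h2ak*, an H2A gene, was in 2 REG and 5 HFD cells and had a ratio of 0.96 over all cells, which was −0.28 without HFD cell 3 and 6.82 without REG cell 5.

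**Figure D5:**
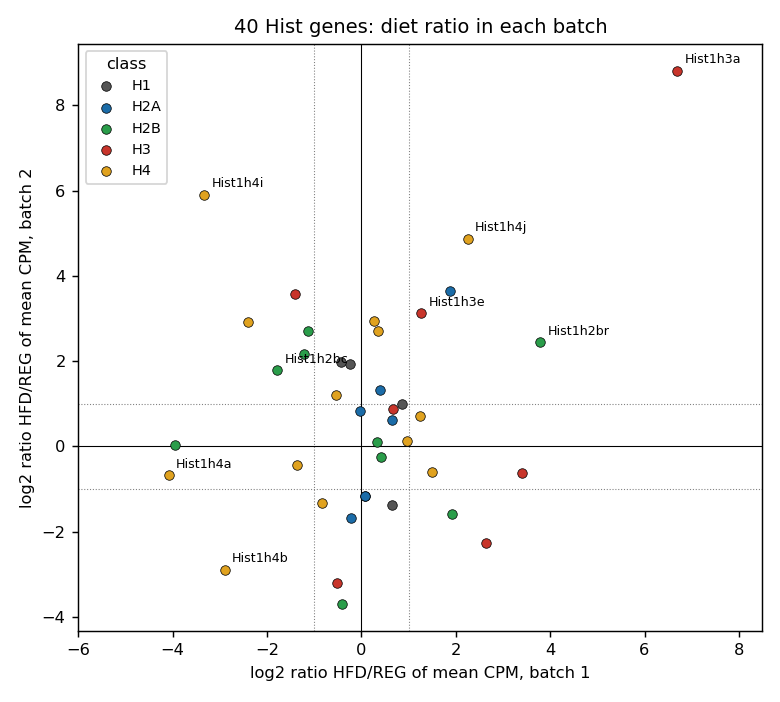
Points are the 40 Hist genes with counts in at least 5 cells and a ratio in both batches, coloured by class; the axes give the log2 ratio of mean CPM, HFD to REG, in batch 1 (x) and batch 2 (y), and dotted lines mark ratios of 1 and −1. *Hist1h3a* lies at 6.70 and 8.81, far from the rest, and 21 of the 40 genes have the same sign on both axes. Some positions are bounds, where a diet had no counts of the gene in a batch.

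Other genes of histone biology were read from fixed lists, with the same limit of 1. At this limit, 13.7% of all genes with counts in at least 5 cells were higher and 21.5% lower in HFD cells. Replication-independent histones are also expressed outside S phase. Of 16 such genes 13 were found, and *H3f3a* and *H3f3b* (H3.3) and *H2afz* (H2A.Z) had counts in all 43 cells. The mean of *H3f3b* was 376.6 CPM in the REG group and 352.3 CPM in the HFD group, a ratio of −0.096. Of 11 genes in at least 5 cells, *H2afv* was higher (1.26) and *H2afy*, the macroH2A gene, lower (−1.26) in HFD cells, and the median was −0.40. *Slbp*, whose protein binds the stem-loop, had counts in all 43 cells, with a REG mean of 55.5 CPM, an HFD mean of 44.3 CPM and a ratio of −0.33. Of the 14 genes for histone 3′ end processing and the histone locus, 1 was higher, *Zfp473* (1.28), and 3 lower, *Cpsf1* (−2.74), *Casp8ap2* (−1.31) and *Lsm10* (−1.0). Of 15 genes of the chaperone list in at least 5 cells, 3 were higher, *Hira* (2.11), *Supt16* (2.05) and *Anp32e* (1.17), and 4 lower, *Chaf1b* (−2.58), *Fkbp5* (−1.80), *Daxx* (−1.61) and *Asf1a* (−1.17). *Fkbp5* is known as a co-chaperone of HSP90 and not of histones. Several of these calls rested on 1 cell: without REG cell 6 *Lsm10* was at −0.059, without REG cell 13 *Casp8ap2* at −0.72, without HFD cell 17 *Zfp473* at 0.91, without REG cell 18 *Asf1a* at −0.54 and without HFD cell 13 *Anp32e* at 0.38. *Cpsf1* was at −1.56 without REG cell 1.

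The list of DNA replication and cell cycle had 20 genes, found in a median of 17.5 cells. *Mki67*, a marker of dividing cells, was in 11 REG and 7 HFD cells and *Top2a*, a topoisomerase of dividing cells, in 18 and 12. Of 18 genes in at least 5 cells, 4 were higher in HFD cells (*Mcm6*, *Ccna2*, *Rrm2* and *E2f1*) and 3 lower (*Mcm7*, *Mki67* and *Ccnb1*), and the median ratio was −0.10. Over all genes in at least 5 cells, 13.7% were higher and 21.5% lower. Leaving out 1 cell took *Ccnb1* from −1.01 to 0.80 and *Mki67* from −1.23 to −0.63 (REG cell 3 for both), *E2f1* from 1.49 to 0.38 (HFD cell 10), *Ccna2* from 1.82 to 0.77 (HFD cell 2) and *Rrm2* from 1.76 to 0.61 (HFD cell 4). Summed, the list spanned 5.77 to 480.2 CPM in the REG group and 2.64 to 356.6 CPM in the HFD group. Over 43 cells of unequal depth, it had a Spearman's rho of 0.0108 (Pearson's r = −0.0496) with the number of Hist genes and of 0.215 (r = 0.109) with their summed CPM.

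The cells also held RNA of marker genes of other cell types. The summed level of 7 microglial genes spanned 0.341 to 1326 CPM over REG libraries (median 50.8) and 2.61 to 1467 CPM over HFD libraries (median 52.3). Of the 7, 4 were higher in HFD cells, *Cx3cr1*, *P2ry12*, *Csf1r* and *Tmem119*, the last with 2.27, or 0.39 without HFD cell 16. Over all genes with counts in at least 5 cells, 13.7% were higher. HFD cell 4, the cell with the most Hist genes, had the highest microglial level of all cells, with the complement gene *C1qa* at 145.9 CPM against a median of 0.183. Of the direct-pathway markers, *Tac1* ranked 41 of 43 in it, *Pdyn* 38, *Drd1* 33 and *Isl1* 20, and the sums for GABAergic and for all medium spiny neurons ranked 27 and 28. Its Hist genes covered all 13 H4, 10 of 20 H2A, 10 of 19 H2B, 7 of 12 H3 and 3 of 6 H1 genes, led by *Hist1h2ap* at 110.4 CPM, and its replication list ranked 32 of 43. Across the 43 cells, microglial level and number of Hist genes had a Spearman's rho of 0.145 (r = 0.243). Summed, 4 oligodendrocyte genes had medians of 88.2 CPM over REG and 136.2 CPM over HFD libraries, above the microglial medians, and reached 854.4 and 980.9 CPM, and 2 genes of their precursors had medians of 4.24 and 2.93 CPM. In HFD cell 4 the oligodendrocyte sum ranked 22. The summed level of 4 astrocyte genes was at most 260.8 CPM in REG and 114.5 CPM in HFD cells, and that of 4 endothelial genes at most 63.4 and 16.8 CPM. The part of RNA from other cells in the Hist values was not tested. Without HFD cells 4 and 11, 64 members had a count in any cell, and *Hist1h3a* was in 50% of HFD cells with a ratio of 6.80.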

How the data were processed

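Reads were quantified by the authors with kallisto on mouse transcripts of GRCm38 and added up by gene symbol, and cells with few reads or genes had been left out. They deposited an estimated count table without normalization and a TPM table scaled by the authors to transcript length and to 1000000 within each cell. Their submitters' processing notes also name edgeR. The libraries were made with SMART-Seq and Nextera XT kits, which do not mark the strand.

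CPM is the estimated count over the total of the cell, times 1000000. Detection is a count above 0. The log2 ratio divides the HFD mean of CPM by the REG mean, and no pseudocount was added. A group with a sum under 0.5 counts was given 3 counts in all, which makes its ratio a bound, and no ratio was given where this did not fix a direction. A count of 0 was read as allowing up to 3. Shares above 0 carry exact (Clopper-Pearson) 95% binomial intervals and summed counts exact Poisson intervals. The ratio and both intervals were run on simulated data with independent draws. This does not test them for PCR copies or for cells that share a mouse. Words of 31 bases, stem-loops and overlaps were read from GENCODE, of a release next to that used by the authors, and promoters from RefSeq.

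Members and lists were chosen with earlier results of these data known. Genes were named by rule: *Hist1h3a*, members in at least 10 cells, the 5 largest ratios each way, the 3 highest in each class, genes within 100000 bases of *Hist1h3a*, and the lists. Markers covered direct-pathway, all medium spiny and GABAergic neurons, microglia, oligodendrocytes and their precursors, astrocytes and endothelial cells. The summed level of the 4 genes for all medium spiny neurons had medians of 2014 CPM in REG and 1665 CPM in HFD cells. *Lars2*, *Hist1h2be* and the entries of HFD cell 4 were singled out after their values were seen.

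Alternatives were TPM, totals that leave out *Lars2* and *Gm19220*, size factors of DESeq2, TMM totals of edgeR, summed counts, thinning to 150000 counts, other detection limits and filters, each batch alone and each cell left out. DESeq2 1.42.0 and edgeR 4.0.16 ran under R 4.3.3, and all else under Python 3.11.15 with scipy 1.17.1, pandas 2.3.3, numpy 2.4.6 and, for plots, matplotlib 3.10.9.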

Additional observations from a re-analysis of the deposited data

How the results depend on the processing

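The diets hold 1 sample each, so ratios were compared with counting intervals only. The ratio of *Hist1h3a* stayed positive under every alternative run: it was at least 5.64 with each cell thinned to 150000 counts, where no REG count was left, 5.54 from summed counts and 8.81 in batch 2, and leaving out 1 cell gave 5.95 to 8.11. Its share of cells was 80% in HFD cells of batch 1, and after thinning 0% of REG cells, against 45% of HFD cells. The ratio of the summed Hist level, 0.27, was 0.32 from TPM, 0.45 with TMM totals, 0.61 with DESeq2 size factors, 0.34 without *Lars2* and *Gm19220*, 0.31 thinned, 0.49 from summed counts, −0.064 in batch 1, 0.67 in batch 2 and 0.010 without HFD cells 4 and 11, and leaving out 1 cell gave 0.12 to 0.44. The median number of Hist genes in HFD cells was 9.5 after thinning.

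Members higher in HFD cells, 5 in the report, numbered 16 without a filter (26.7%, against 18.3% of all genes), 2 under a stricter filter of at least 5 cells past 15 CPM and a mean past 4 CPM (9.52% against 9.04%), 8 with TMM totals (19.5% against 17%), 12 from summed counts (29.3% against 17.1%), 10 in batch 1 (25% against 21.6%) and 18 in batch 2 (43.9% against 17.9%). Members lower, 8 in the report, numbered 14 without a filter (23.3% against 25.7%), 2 under that filter (9.52% against 14.3%), 5 with TMM totals (12.2% against 19.5%) and 10 in either batch (25% against 28%, and 24.4% against 27.8%). TMM totals moved the median ratio of all genes from −0.17 to −0.048, and DESeq2 size factors moved it to 0.059. Ratios changed sign for *Hist1h2bh* in batch 1 (−1.13), *Hist1h3h* in batch 2 (at least 2.15), *Hist2h2aa2* in batch 1 (0.067) and *Hist2h2be* in batch 2 (0.044), and leaving out 1 cell took *Hist2h2be* from −4.24 (HFD cell 19) to 0.87 (REG cell 3). Single members lay within their own counting interval in 29 of 40 cases with TMM totals, 34 of 40 with TPM, 11 of 39 in batch 1 and 9 of 40 in batch 2. The cause of these shifts was not tested. The share of cells that held both genes of a pair was 0.308 at a count of at least 1, 0.278 thinned and 0.303 without HFD cells 4 and 11. The removal of HFD cells 4 and 11, and alternatives for single members and for shared detection, were chosen after seeing the data. No paired analysis was possible because a cell's number only names it and joins no REG cell to an HFD cell. Counts of 1 to 8 decide the REG value of *Hist1h3a*, so its ratio is imprecise.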
